A study of Mus musculus with 6 samples.

Results

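Mitochondrial carriers are the transport proteins of the SLC25 family, encoded by genes named Slc25a followed by a number, together with the uncoupling protein genes Ucp1 and Ucp3 of the same family. Members were chosen by symbol, and 48 of the 19938 genes measured on the arrays met the rule. Ucp2, an uncoupling protein homologue, had no probe set under its symbol in the platform annotation and was not analysed here. They were compared in 6 mouse colon tumours, 3 from Dnmt1chip/c; ApcMin/+ mice and 3 from Dnmt1chip/+; ApcMin/+ mice. Dnmt1 encodes the maintenance DNA methyltransferase, which methylates the new strand after replication; chip is a hypomorphic allele and c a conventional knockout allele, so all mice carried chip and ApcMin, an Apc allele that gives rise to intestinal tumours. The series describes the Dnmt1chip/c genotype as having less methylated satellite repeats near the centromeres, and Dnmt1chip/+ mice as having the methylation of wild-type animals. The mice were F1 hybrids of C57BL/6 (the c allele or its wild-type counterpart, with ApcMin) and 129Sv4 (chip). Dextran sodium sulfate, a tumour promoter of the colon, was fed at 2% (w/v) from an age of 6 weeks, and colon tumours were collected when the mice were 20 weeks old. The Dnmt1 alleles are not restricted to one cell type, and whole tumours were measured. In the sample descriptions all 3 Dnmt1chip/c tumours share a number and so do 2 of the 3 Dnmt1chip/+ tumours. No label says that tumours came from separate animals, and the spread that p-values rest on may therefore be technical or lie within an animal.

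Mitochondrial carriers sit mostly in the inner mitochondrial membrane and move small molecules between the cytosol and the matrix: nucleotides and phosphate, the acids of the citric acid cycle, amino acids, acylcarnitines, cofactors, iron and glutathione. Related carriers of one substrate often divide their work between tissues, as the ADP/ATP carriers do: Slc25a4 is the form of heart and muscle, Slc25a5 that of dividing cells and Slc25a31 that of male germ cells. Slc25a31 is also known in the mouse as a gene that is kept silent by promoter DNA methylation in somatic tissues. Slc25a20 brings long-chain acylcarnitines into the matrix for fatty acid oxidation, whereas butyrate, the short-chain fatty acid that colon surface cells chiefly oxidise, enters without it.

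The promoters of 4 carriers are shown because DNA methylation falls on CG dinucleotides, which are in capitals: the 3 ADP/ATP carriers, and Slc25a20, the called carrier with the largest difference. Each window runs from 250 bases before the gene's start to 50 after it, 5′ to 3′ on the gene's strand, in RefSeq's sequence of GRCm38.p6. The Slc25a31 window lies on the plus strand of chromosome 3 (chr3:40708621-40708920) and the Slc25a4 window on the minus strand of chromosome 8 (chr8:46211013-46211312). The Slc25a5 window lies on the plus strand of chromosome X (chrX:36795347-36795646) and the Slc25a20 window on the plus strand of chromosome 9 (chr9:108661886-108662185).
Slc25a31: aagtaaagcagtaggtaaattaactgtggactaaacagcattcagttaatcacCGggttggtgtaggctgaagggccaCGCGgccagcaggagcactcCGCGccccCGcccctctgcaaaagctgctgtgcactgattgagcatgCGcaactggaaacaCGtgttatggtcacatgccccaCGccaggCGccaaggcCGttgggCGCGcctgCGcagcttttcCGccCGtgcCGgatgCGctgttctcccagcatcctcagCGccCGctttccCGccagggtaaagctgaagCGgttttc
Slc25a4: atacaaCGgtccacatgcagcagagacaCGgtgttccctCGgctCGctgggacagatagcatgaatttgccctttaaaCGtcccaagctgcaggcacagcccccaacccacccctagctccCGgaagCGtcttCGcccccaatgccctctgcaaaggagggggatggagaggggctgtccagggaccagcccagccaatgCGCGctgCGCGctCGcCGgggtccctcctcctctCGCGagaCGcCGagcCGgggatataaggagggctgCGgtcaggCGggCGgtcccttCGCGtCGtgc
Slc25a5: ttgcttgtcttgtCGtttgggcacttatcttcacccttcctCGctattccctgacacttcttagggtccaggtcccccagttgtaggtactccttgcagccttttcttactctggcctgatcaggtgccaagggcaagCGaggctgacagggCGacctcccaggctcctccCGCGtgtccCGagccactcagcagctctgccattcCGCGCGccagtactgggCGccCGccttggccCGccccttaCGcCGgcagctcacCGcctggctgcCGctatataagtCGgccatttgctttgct
Slc25a20: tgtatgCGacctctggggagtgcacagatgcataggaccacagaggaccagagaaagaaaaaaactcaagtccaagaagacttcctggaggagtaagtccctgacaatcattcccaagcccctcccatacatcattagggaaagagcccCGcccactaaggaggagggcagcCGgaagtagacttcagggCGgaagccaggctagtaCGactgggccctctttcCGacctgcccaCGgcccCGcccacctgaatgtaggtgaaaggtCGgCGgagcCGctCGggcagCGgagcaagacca
These windows held 22 CG dinucleotides in Slc25a31, 25 in Slc25a4, 18 in Slc25a5 and 13 in Slc25a20. Methylation of these bases was not measured. The observed over expected ratio of CG was 0.826 in Slc25a31, higher than in 70.2% of the measured genes with such a window, 0.775 in Slc25a4, 0.669 in Slc25a5 and 0.515 in Slc25a20. Windows were found for 38 of the 48 carriers, and the one with the most CG was taken where a gene had several. Their median ratio was 0.634, against 0.655 over 15614 measured genes.

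Values are centred log2 values: each probe set was set to a median of 0 over the 6 arrays before deposit, so a value is a difference from the middle of the 6 tumours and carries no level. For a gene with 1 probe set whose groups do not overlap, the nearest tumours of each group are therefore mirror images around 0. A gene is called here at an adjusted p under 0.05 in limma, a linear model fitted to all genes with a shared estimate of the spread. Dnmt1 itself was lower in Dnmt1chip/c tumours, at -0.37, -0.48 and -0.42, against 0.44, 0.52 and 0.37 in Dnmt1chip/+ tumours, a difference of -0.87 (SE 0.063, adjusted p = 3.13e-04 in limma). Over all genes 32.0% were called.

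Carriers moved in both directions. Of the 48 carriers, 11 (22.9%) were higher in Dnmt1chip/c tumours, where 10.7% of all genes were higher, and 8 (16.7%) were lower, where 21.3% of all genes were lower. The groups did not overlap in 27 of the 48 carriers (56.3%), against 46.4% of all genes. The median difference was 0.028 on the log2 scale over the carriers and -0.0058 over all genes, and the median size of a difference was 0.17 and 0.15. A total of 28 carriers, inferred from the numerical step of the values, had values of 8 or above on every array before centring. Among these 28, 8 (28.6%) were higher and 7 (25.0%) lower, against 14.8% higher and 33.8% lower among the 10167 genes of that kind. Without Dnmt1chip/c replicate 1, the tumour with the most genes far above the other tumours, 11 carriers were higher and 7 lower. Without Dnmt1chip/+ replicate 1 the higher carriers numbered 6 and without Dnmt1chip/+ replicate 3 they numbered 7.

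**Figure D1:**
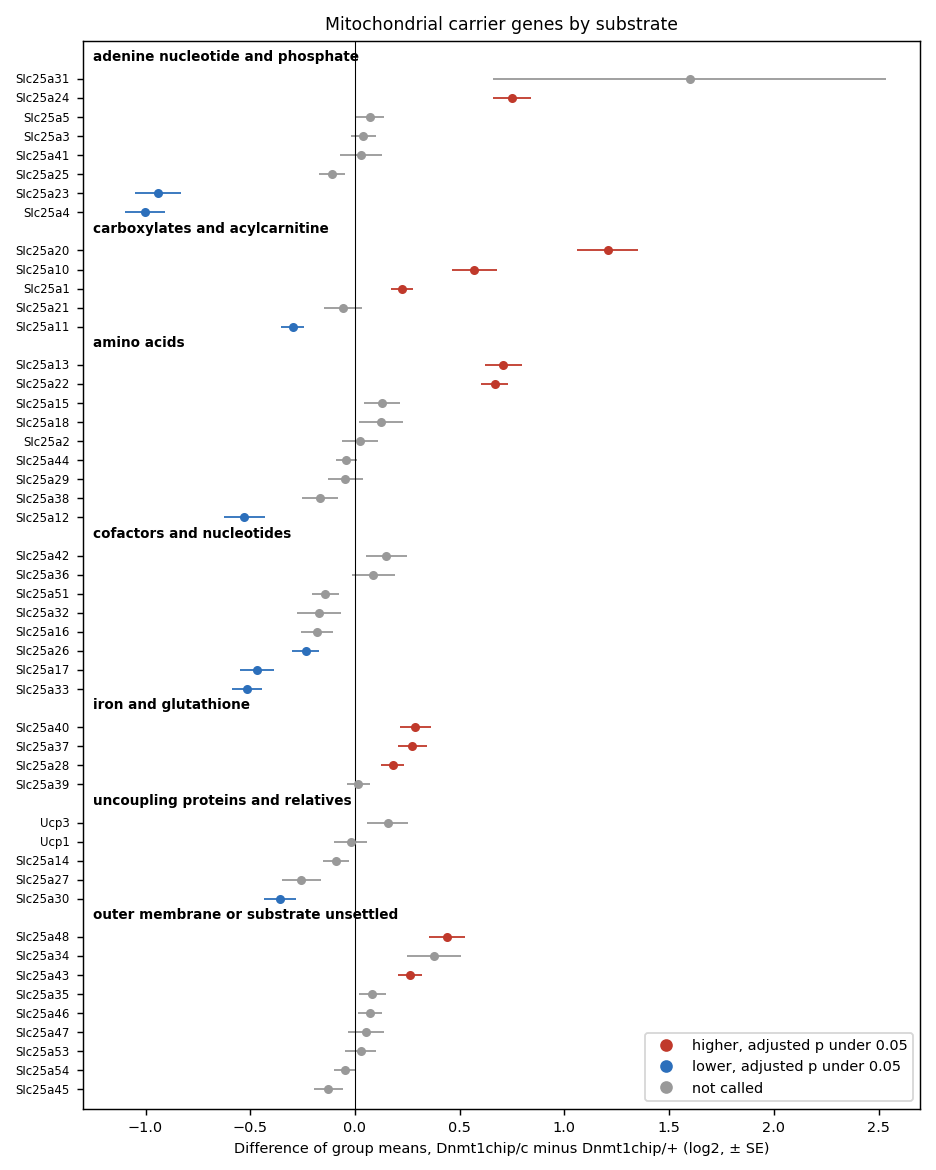
Difference of group means, Dnmt1chip/c minus Dnmt1chip/+, on the log2 scale with its SE, for the 48 carriers in 7 substrate groups; red points were called higher, blue points lower and grey points were not called (limma, adjusted p under 0.05). Slc25a20 lies farthest right among called carriers at 1.21 and Slc25a4 farthest left at -1.004, and Slc25a31 at 1.60 has by far the widest error.

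The tumours also differed in markers of cell types, and in whole tumours fewer cells of a type and less RNA per cell cannot be told apart. Over all genes 10.7% were higher and 21.3% lower. Surface colonocyte markers were higher in 8 of 8 measured, with mean centred values of 1.24 to 1.86 in Dnmt1chip/c tumours and -2.27 to -1.25 in Dnmt1chip/+ tumours. General epithelial markers were higher in 5 of 7, led by Vil1 of the brush border (1.02), with a median difference of 0.26 over the 7. Epcam (0.064) and Krt18 (-0.017) were not called. Proliferation markers were lower in 5 of 7 (mean values of -0.36 to -0.12 against 0.12 to 0.36), fibroblast markers in 5 of 8 (-0.57 to -0.12 against 0.12 to 0.51), smooth muscle markers in 5 of 8 (-0.37 to -0.12 against 0.15 to 0.34) and macrophage markers in 3 of 7 (-0.83 to 0.096 against -0.015 to 0.47). Goblet cell markers were higher in 4 of 5. No striated muscle marker of 7 and no erythroid marker of 4 was called in limma (0 and 1 at an unadjusted p under 0.05), and 1 of 6 fat cell markers (Retn) and 1 of 6 lymphocyte markers (Ms4a1) were higher. Centred values cannot show whether a marker is present, so the labelled tissue was not checked by presence. The part of these cell types in the carrier results was not tested.

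The adenine nucleotide and phosphate carriers held the largest decreases. Slc25a4, the ADP/ATP carrier of heart and muscle, had centred values of -0.41, -0.70 and -0.41 in Dnmt1chip/c tumours, against 0.57, 0.52 and 0.41 in Dnmt1chip/+ tumours. The groups were separate, with means of -0.51 ± 0.17 and 0.50 ± 0.081 (SD, n = 3 each). Slc25a4 was 2.01-fold lower in Dnmt1chip/c tumours, a difference of -1.004 (SE 0.095, adjusted p = 0.000658 in limma). Its relative of dividing cells, Slc25a5, stood at 0.13, 0.12 and -0.054 in Dnmt1chip/c tumours and at 0.011, -0.024 and -0.014 in Dnmt1chip/+ tumours. These groups overlapped, and Slc25a5 differed by 0.073 (SE 0.067, adjusted p = 0.468 in limma). It was the mean of 3 probe sets, in each of which Dnmt1chip/c replicate 3 was the lowest tumour. Of the smooth muscle markers, 5 of 8 were lower beside Slc25a4: Acta2 (-0.93), Kcnmb1 (-0.85), Actg2 (-0.66), Tagln (-0.58) and Smtn (-0.24). Myh11 (-0.17), Des (-0.14) and Cnn1 (-0.23) were not called. The 7 striated muscle markers, none of them called, differed by -0.40 to 0.15. The part of muscle cells in the Slc25a4 result was not tested.

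Slc25a31, the testis form, was high in a single tumour. It read 3.97 in Dnmt1chip/c replicate 1, 0.56 in replicate 2 and 0.011 in replicate 3, against -0.011, -0.22 and -0.022 in Dnmt1chip/+ tumours. The groups did not overlap, but the lowest Dnmt1chip/c tumour lay only just above the highest Dnmt1chip/+ tumour. Slc25a31 has 1 probe set and was not inferred at 8 or above on every array before centring. Its smaller values may therefore lie at the array's floor. The difference of 1.60 (SE 0.94) did not pass the test (adjusted p = 0.25 in limma), and the exact permutation test gave p = 0.1, two-sided, the smallest that 3 against 3 allows. Without Dnmt1chip/c replicate 1 the difference was 0.37 (adjusted p = 0.141 in limma). The spread of Slc25a31 in Dnmt1chip/c tumours (SD 2.15) was the largest of all 19938 genes in that group; that of the next carrier, Slc25a20, was 0.28.

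The gap between the highest tumour and the next was used to describe such single-tumour values. For Slc25a31 it was 3.41 on the log2 scale, the largest of any gene in a Dnmt1chip/c tumour, and the next gene of that tumour, the immunoglobulin segment Igkv4-55, had 1.80. That tumour stood apart from the others: 30 genes had a gap of at least 1 there, against 0 to 6 in each other tumour. Gbp8 (1.80), Gbp5 (1.73), the immunoglobulin gene Ighg3 (1.61) and Nos2 (1.39), genes of immune responses, were among its 10 largest gaps. Each of the 6 measured lymphocyte markers was highest in that tumour, with Cd79a of B cells at 1.42. The part of immune cells in the Slc25a31 value was not tested. Over the 6 tumours and all genes 2 gaps reached 2: Slc25a31 in Dnmt1chip/c replicate 1 and Hoxd12, a homeobox gene, in Dnmt1chip/+ replicate 1 (3.78). The next carrier was Slc25a34, with a gap of 0.41 in Dnmt1chip/c replicate 2. None of 8 measured germ cell markers had a gap of 2. Syce1 (1.24, 1.32 and 1.43 in Dnmt1chip/c tumours, against -1.24, -1.56 and -1.25 in Dnmt1chip/+ tumours) and Tex11 were higher (25.0%, against 10.7% of all genes). Ddx4, Dazl, Sycp3, Mael, Piwil2 and Stra8 were not called. None of the 8 was inferred at 8 or above before centring. Among all genes not so inferred only 14.8% were called, so a missing call says little about these markers. Ddx4, the germ cell helicase, read 0.093, 0.15 and -0.053 in Dnmt1chip/c tumours, against 0.015, -0.18 and -0.015 in Dnmt1chip/+ tumours.

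**Figure D2:**
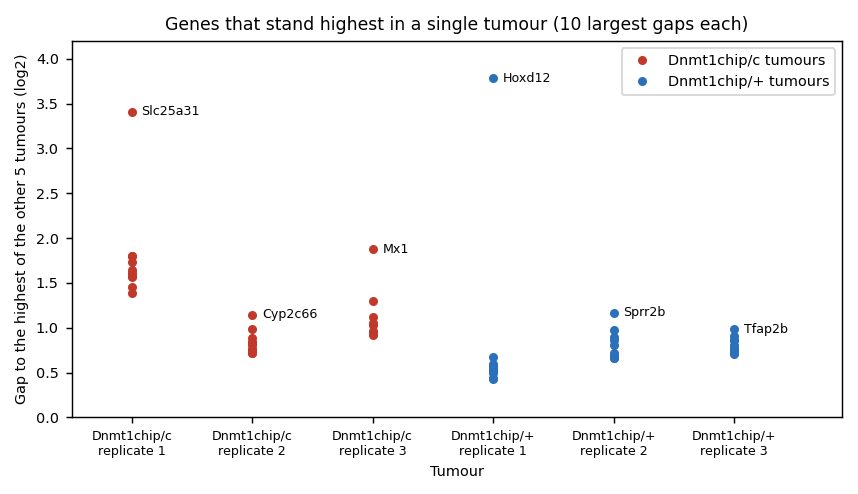
Gap on the log2 scale between a gene's value in the tumour where it is highest and the highest of the other 5 tumours, for the 10 genes with the largest gap in each tumour; the gene with the largest gap is named. Slc25a31 at 3.41 and Hoxd12 at 3.78 are the points above 2.

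**Figure D3:**
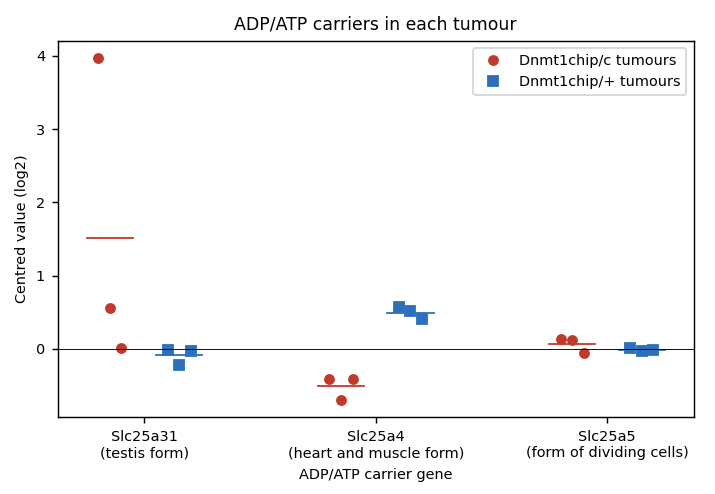
Centred log2 values of the 3 ADP/ATP carriers in each tumour, Dnmt1chip/c in red and Dnmt1chip/+ in blue, with lines at the group means. Slc25a31 reaches 3.97 in 1 Dnmt1chip/c tumour, Slc25a4 is lower in every Dnmt1chip/c tumour and the groups of Slc25a5 overlap.

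The shown promoters of these carriers were searched on both strands for 1 motif. TCCCGC, the core bound by E2F6, a repressor of germline genes in mouse somatic cells, lay at bases 271 to 276 of the Slc25a31 window and at 169 to 174 of the Slc25a5 window; 20.0% of all 32851 windows held it, and so did the windows of 10 carriers.

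The carriers that exchange ATP-magnesium for phosphate and so set the nucleotide content of the matrix split in direction. Slc25a23, a calcium-regulated member, had values of -0.32, -0.72 and -0.55 in Dnmt1chip/c tumours, against 0.38, 0.32 and 0.52 in Dnmt1chip/+ tumours, and was 1.92-fold lower (difference -0.94, SE 0.11, adjusted p = 0.00128 in limma). Slc25a24, another calcium-regulated member, had 0.26, 0.56 and 0.36 in Dnmt1chip/c tumours, against -0.42, -0.38 and -0.26 in Dnmt1chip/+ tumours. It was 1.68-fold higher (difference 0.75, SE 0.09, adjusted p = 0.00144 in limma). Neither gene's groups overlapped. Slc25a25 (-0.11) and Slc25a41 (0.028), of the same kind, and the phosphate carrier Slc25a3 (0.041) were not called. In RefSeq's gene order Slc25a41 is the protein-coding neighbour of Slc25a23, and Slc25a54 (-0.046, not called) that of Slc25a24.

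Carriers of carboxylates and acylcarnitine were called in 4 of 5 cases (80.0%, against 32.0% of all genes), 3 higher and 1 lower. Of the 5, 4 were inferred at 8 or above before centring, where 48.6% of genes were called. Slc25a20, the carnitine/acylcarnitine carrier, had values of 0.69, 0.94 and 0.38 in Dnmt1chip/c tumours, against -0.63, -0.61 and -0.38 in Dnmt1chip/+ tumours. It was 2.31-fold higher (difference 1.21, SE 0.15, adjusted p = 0.00147 in limma), with separate groups. Slc25a10, which exchanges malate and succinate for phosphate, had 0.17, 0.61 and 0.37 in Dnmt1chip/c tumours, against -0.17, -0.21 and -0.18 in Dnmt1chip/+ tumours, a difference of 0.57 (adjusted p = 0.00743 in limma). The citrate carrier Slc25a1 was slightly higher (0.23), a call lost without Dnmt1chip/+ replicate 1 and without Dnmt1chip/+ replicate 3. Slc25a11, the oxoglutarate/malate carrier, was lower, at -0.11, -0.11 and -0.14 in Dnmt1chip/c tumours, against 0.22, 0.11 and 0.20 in Dnmt1chip/+ tumours (difference -0.30). Slc25a21, the oxodicarboxylate carrier, was not called (-0.056).

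Enzymes beside these carriers moved unevenly, where 10.7% of all genes were higher and 21.3% lower. In the carnitine shuttle 2 of 8 measured genes were higher and 2 lower. Cpt1a, which forms the acylcarnitines that Slc25a20 carries, was higher by 0.42 and the acyl-CoA synthetase Acsl5 by 0.21. Acsl4 (-0.76), a synthetase for polyunsaturated fatty acids, and the peroxisomal Crot (-0.18) were lower. Cpt2, which acts after Slc25a20, was not called (0.13). Among 11 genes of the malate-aspartate and citrate shuttles 3 were higher, led by the malic enzyme Me1 (1.71, SE 0.09), and 3 lower, with the transaminase Got1 at 0.55 and its mitochondrial partner Got2 at -0.41.

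Amino acid carriers were called in 3 of 9 cases (33.3%), near the 32.0% of all genes. The aspartate/glutamate carriers of the malate-aspartate shuttle went opposite ways. Slc25a13 (citrin) had values of 0.23, 0.49 and 0.48 in Dnmt1chip/c tumours, against -0.31, -0.23 and -0.38 in Dnmt1chip/+ tumours, and was 1.63-fold higher (difference 0.71, SE 0.088, adjusted p = 0.00163 in limma). Slc25a12 (aralar) had -0.13, -0.49 and -0.35 in Dnmt1chip/c tumours, against 0.23, 0.13 and 0.27 in Dnmt1chip/+ tumours, and was 1.44-fold lower (difference -0.53, adjusted p = 0.00709 in limma). The tumours of each gene fell into separate groups. Slc25a22, a glutamate carrier, had 0.27, 0.40 and 0.46 in Dnmt1chip/c tumours, against -0.28, -0.27 and -0.32 in Dnmt1chip/+ tumours. It was 1.59-fold higher (difference 0.67, SE 0.065, adjusted p = 0.00072 in limma). The other glutamate carrier, Slc25a18 (0.12), the ornithine carriers Slc25a2 (0.024) and Slc25a15 (0.13), the basic amino acid carrier Slc25a29 (-0.046), the glycine carrier Slc25a38 (-0.17) and the branched-chain amino acid carrier Slc25a44 (-0.042) were not called. Of 9 genes of the ornithine, glutamate and urea cycle list, Otc, which uses the ornithine brought in by these carriers, was higher (1.41, SE 0.19), and Cps1 (-0.94) and Asl (-0.24) were lower.

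Related carriers were set side by side as differences within each tumour, for 9 pairs chosen with the values known, so these differences restate the single-gene values and are given as a description. In 3 of the 9 pairs 1 carrier was called higher and the other lower: Slc25a24 and Slc25a23, Slc25a13 and Slc25a12, and Slc25a10 and Slc25a11. Slc25a24 minus Slc25a23 was 0.59, 1.28 and 0.92 in Dnmt1chip/c tumours, against -0.80, -0.70 and -0.78 in Dnmt1chip/+ tumours, a change of 1.69 (SE 0.20). Slc25a13 minus Slc25a12 was 0.35, 0.98 and 0.83 in Dnmt1chip/c tumours, against -0.55, -0.35 and -0.65 in Dnmt1chip/+ tumours, a change of 1.24 (SE 0.21). The change was 0.87 (SE 0.13) for Slc25a10 minus Slc25a11. In another 4 pairs only 1 carrier was called, and the change was 1.08 (SE 0.14) for Slc25a5 minus Slc25a4, 0.60 (SE 0.13) for Slc25a36 minus Slc25a33, 0.54 (SE 0.15) for Slc25a22 minus Slc25a18 and 0.27 (SE 0.052) for Slc25a40 minus Slc25a39. Groups were separate in these 7 of the 9 pairs. They overlapped for the iron carriers, both called higher (Slc25a37 minus Slc25a28, 0.094, SE 0.076), and for the ornithine carriers, neither of them called (Slc25a15 minus Slc25a2, 0.11, SE 0.16). Each of the 7 separate pairs holds a called carrier, so the count of separate pairs is no further result. Groups did not overlap in 46.4% of all single genes, and no such share was computed for pairs of genes.

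**Figure D4:**
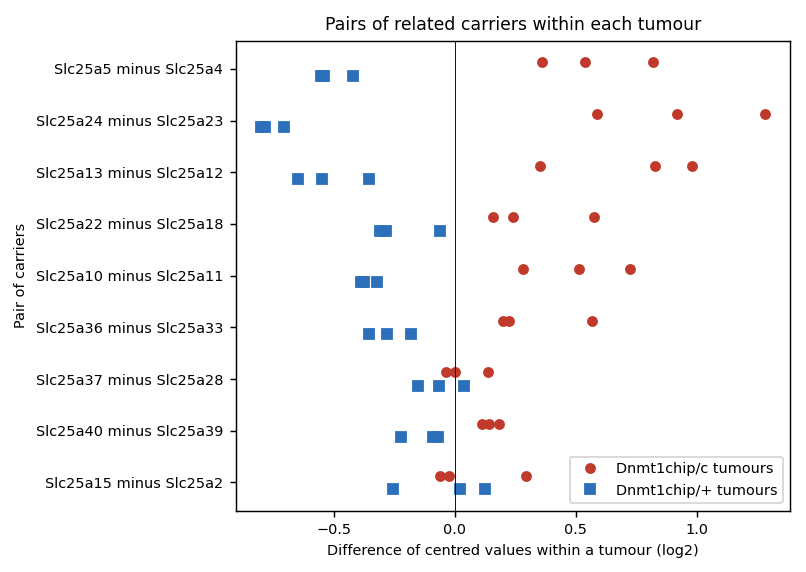
Difference of centred log2 values between the carriers of 9 pairs within each tumour, Dnmt1chip/c in red above Dnmt1chip/+ in blue. Slc25a24 minus Slc25a23 runs from 0.59 to 1.28 in Dnmt1chip/c tumours and from -0.80 to -0.70 in Dnmt1chip/+ tumours, and the iron and ornithine carrier pairs overlap.

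No cofactor or nucleotide carrier was higher in limma, also at an unadjusted p under 0.05, and 3 of 8 (37.5%) were lower. Over all genes 10.7% were higher and 21.3% lower. Of 9 carriers listed in this group 8 were measured. Slc25a33, which imports pyrimidine nucleotides for mitochondrial DNA and RNA, had -0.33, -0.34 and -0.17 in Dnmt1chip/c tumours, against 0.23, 0.30 and 0.17 in Dnmt1chip/+ tumours (difference -0.51, SE 0.071, adjusted p = 0.00243 in limma). Its relative Slc25a36 was not called (0.088); its 2 probe sets both had Dnmt1chip/c replicate 1 highest and Dnmt1chip/c replicate 2 or Dnmt1chip/+ replicate 1 lowest. Slc25a17, a peroxisomal carrier of coenzyme A, FAD and NAD, was lower, at -0.13, -0.37 and -0.38 in Dnmt1chip/c tumours, against 0.18, 0.22 and 0.13 in Dnmt1chip/+ tumours (difference -0.47). Slc25a26, which imports S-adenosylmethionine, the methyl donor, fell by 0.24 (adjusted p = 0.0291 in limma). That call was lost without each tumour in turn except Dnmt1chip/c replicate 2. The coenzyme A carriers Slc25a16 (-0.18) and Slc25a42 (0.15), the folate and FAD carrier Slc25a32 (-0.17) and the NAD carrier Slc25a51 (-0.14) were not called. Of 12 measured genes of one-carbon and glycine metabolism 4 were lower, Shmt2 (-0.69), Mthfd1l (-0.59), Mthfd2l (-0.46) and Shmt1 (-0.46), and Dld was higher (0.20). Among 9 genes of coenzyme A, thiamine and FAD synthesis 2 were higher, Rfk of FMN synthesis (0.70) and Ppcs (0.32), and 3 lower, Pank1 (-0.31), Pank4 (-0.25) and Coasy (-0.25).

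The iron and glutathione carriers were higher in 3 of 4 cases (75.0%), by small amounts. Of the 4, 3 were inferred at 8 or above before centring, where 14.8% of genes were higher and 33.8% lower. Over all genes 10.7% were higher and 21.3% lower. The mitoferrin gene Slc25a37 stood at 0.12, 0.20 and 0.066 in Dnmt1chip/c tumours, against -0.13, -0.066 and -0.23 in Dnmt1chip/+ tumours (difference 0.27, adjusted p = 0.0209 in limma), and mitoferrin 2, Slc25a28, differed by 0.18 (adjusted p = 0.0436 in limma). The glutathione carrier Slc25a40 had 0.056, 0.23 and 0.16 in Dnmt1chip/c tumours, against -0.10, -0.071 and -0.24 in Dnmt1chip/+ tumours (difference 0.29, adjusted p = 0.0238 in limma), whereas Slc25a39 was not called (0.016). All 3 calls were lost when certain tumours were left out, although the differences stayed positive. Over the processing alternatives they were 0.15 to 0.21 for Slc25a28, 0.23 to 0.31 for Slc25a37 and 0.24 to 0.34 for Slc25a40. The Slc25a28 call was lost without each tumour in turn. That of Slc25a37 was lost without Dnmt1chip/+ replicate 1, Dnmt1chip/+ replicate 3 or Dnmt1chip/c replicate 2, and that of Slc25a40 without any of these or Dnmt1chip/c replicate 3. Of 8 glutathione genes 5 were higher and none lower in limma, also at an unadjusted p under 0.05: Gss (0.61), Gpx2 (0.47), Gclc (0.45), Gpx1 (0.33) and Gclm (0.22). Among 13 genes of haem and iron-sulphur synthesis Alas1, the first enzyme of haem synthesis outside red cells, was higher (1.00, SE 0.09) and 6 were lower, Urod (-0.50), Lyrm4 (-0.36), the red cell form Alas2 (-0.35), Alad (-0.23), Iscu (-0.20) and Uros (-0.19).

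Of the uncoupling proteins and their relatives 1 of 5 (20.0%) was called, against 32.0% of all genes. Slc25a30, the kidney-type relative, was lower, at -0.12, -0.34 and -0.14 in Dnmt1chip/c tumours, against 0.13, 0.23 and 0.12 in Dnmt1chip/+ tumours (difference -0.36, adjusted p = 0.0126 in limma). Ucp1, the proton carrier of brown fat, had 0.034, 0.04 and -0.14 in Dnmt1chip/c tumours and -0.034, -0.075 and 0.10 in Dnmt1chip/+ tumours. Its groups overlapped, and it differed by -0.020 (SE 0.078, adjusted p = 0.877 in limma). Ucp3, the form of muscle, had 0.013, 0.32 and -0.012 in Dnmt1chip/c tumours and -0.057, -0.10 and 0.012 in Dnmt1chip/+ tumours, also overlapping (difference 0.16, SE 0.098, adjusted p = 0.28 in limma). Of the brain-type relatives, Slc25a14 was not called (-0.092). Slc25a27 was not called either (-0.26, adjusted p = 0.0771 in limma), although its groups did not overlap, and it was called without Dnmt1chip/+ replicate 3 (-0.35, adjusted p = 0.0195).

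Among 9 members that lie in the outer membrane or lack a settled substrate, 2 were higher and none lower in limma (3 and 0 at an unadjusted p under 0.05). The higher share was 22.2%, against 10.7% of all genes, and 21.3% of all genes were lower. Slc25a48 had 0.22, 0.11 and 0.39 in Dnmt1chip/c tumours, against -0.28, -0.11 and -0.19 in Dnmt1chip/+ tumours (difference 0.44, adjusted p = 0.0088 in limma), and Slc25a43 differed by 0.26 (adjusted p = 0.0142 in limma, a call lost without Dnmt1chip/+ replicate 1). Slc25a34 came close, with 0.074, 0.55 and 0.14 in Dnmt1chip/c tumours and -0.074, -0.22 and -0.08 in Dnmt1chip/+ tumours (difference 0.38, adjusted p = 0.0621 in limma), and was called without Dnmt1chip/c replicate 1. Slc25a46, an outer-membrane member that takes part in mitochondrial fusion and fission, was not called (0.07). The remaining 5, Slc25a35, Slc25a45, Slc25a47, Slc25a53 and Slc25a54, differed by -0.13 to 0.082 and were not called.

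**Figure D5:**
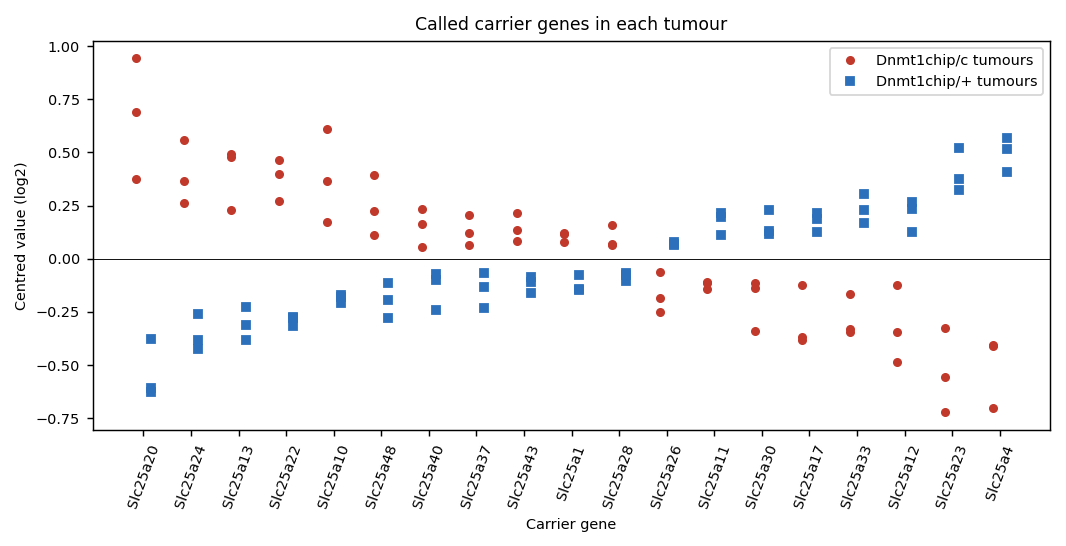
Centred log2 values of the 19 called carriers in each tumour, ordered by difference, Dnmt1chip/c in red to the left of Dnmt1chip/+ in blue. The genes run from Slc25a20 (Dnmt1chip/c values of 0.38 to 0.94) to Slc25a4 (-0.70 to -0.41). They were chosen by their call, so the separate groups of every gene shown are no further result. Groups did not overlap in 46.4% of all genes.

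Genes that import carriers through the outer membrane or insert them into the inner membrane were called in 16.7% of cases, against 32.0% of all genes. Among genes inferred at 8 or above before centring, as 11 of the 12 were, 48.6% were called. Of 12 measured genes of that route none was higher in limma (0 at an unadjusted p under 0.05) and 2 were lower, Agk (-0.48), a subunit of the TIM22 translocase, and the outer-membrane receptor Tomm20 (-0.28); Timm22, the channel subunit, was not called (-0.024). Among 18 other mitochondrial membrane transporters 5 were higher, Mcu, the calcium uniporter pore (0.75), Tspo (0.52), Letm1 (0.35), Vdac2 (0.26) and Sfxn4 (0.24), and 2 lower, Sfxn3 (-0.74) and Mtch1 (-0.45). Regulators of mitochondrial gene expression were higher in 4 of 14, Pparg (1.44), Ppargc1b (1.30), Ppard (0.84) and Esrra (0.60), and lower in 3, Ppargc1a (-0.97), Tfb1m (-0.45) and Gabpb1 (-0.27). Ppargc1b, a coactivator of mitochondrial genes, read 0.50, 0.88 and 0.84 in Dnmt1chip/c tumours, against -0.65, -0.52 and -0.50 in Dnmt1chip/+ tumours. Its relative Ppargc1a read -0.65, -0.78 and -0.24 in Dnmt1chip/c tumours, against 0.58, 0.41 and 0.24 in Dnmt1chip/+ tumours. Over all 114 measured partner genes 24 (21.1%) were higher and 27 (23.7%) lower, against 10.7% and 21.3% of all genes. Of the 114, 102 were inferred at 8 or above before centring, where 14.8% of genes were higher and 33.8% lower. Lower partner genes numbered 13 without Dnmt1chip/+ replicate 1 and 14 without Dnmt1chip/+ replicate 2. Higher partner genes numbered 16 without Dnmt1chip/+ replicate 1, and 18 were lower without Dnmt1chip/c replicate 2.

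Promoter CG content was also set beside the direction of the carriers, as a description. The median observed over expected ratio of CG was 0.58 in the 10 higher carriers with a window, 0.754 in the 7 lower ones and 0.669 in the 21 not called. The ranges overlapped: the windows held 10 to 47 CG in higher, 12 to 30 in lower and 1 to 51 in carriers not called.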

How the data were processed

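RNA of 6 mouse colon tumours was biotin-labelled and hybridised to arrays, per the labels' protocols; the descriptions of 4 samples name an Affymetrix MoGene array. The deposited values are log2 values of 28856 probe sets, centred by the authors to a median of 0 over the arrays (100% of probe sets within 1e-06). Base 2 is inferred from the numerical steps of the values, and folds rest on it; how the arrays were normalized and summarised is not given in the sources used here. Without a detection call, low values may lie at the array's floor. The 21789 probe sets with 1 gene symbol in the platform annotation were averaged into 19938 genes (3 carriers had several); 1621 with several symbols and 5446 with none were left out. Symbols were matched by Entrez number to RefSeq (19856 genes). A probe set whose values are all multiples of 2 to the power -20 was taken to have been at 8 or above on every array.

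The groups were compared with limma 3.58.1 in R 4.3.3 (lmFit, eBayes without a trend, two-sided, Benjamini-Hochberg over all genes), tested on simulated data. The members and the 7 substrate groups, 10 partner and 12 marker lists were chosen with earlier results of these data known. Values in every tumour are given for called carriers with a difference of at least 0.58 and for the ADP/ATP carriers, Slc25a20 and uncoupling proteins; others shown so were added after their values were seen. Up to 5 genes of each partner list and 3 of each marker list with the smallest p were to be named, with additions. Alternatives were the title's replicate number as a block, the descriptions' shared number as a random block, quantile normalization, median centring, array weights, robust eBayes, filters, other thresholds and leaving out each tumour. Arrays carry no counts, and 6 arrays limit the precision.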

Additional observations from a re-analysis of the deposited data

How the results depend on the processing

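Of the 19 called carriers 12 kept their call in each of up to 15 alternatives at an adjusted p of 0.05 or 0.10, 6 higher and 6 lower: Slc25a20, Slc25a24, Slc25a13, Slc25a22, Slc25a10 and Slc25a48, and Slc25a4, Slc25a23, Slc25a12, Slc25a33, Slc25a17 and Slc25a11. The threshold of 0.10 can lose no call made at 0.05, and the stricter 0.01 was not among these alternatives. Replicate numbers did not pair the tumours: same-numbered tumours of the 2 genotypes correlated at -0.31 to -0.22 in their deviations from the group means, below every other pairing. With the replicate block 7 carriers were higher and 6 lower, and 17 partner genes were higher and 14 lower, against 11, 8, 24 and 27 without it; over all genes 2714 were lower with the block and 4256 without. At an adjusted p of 0.01, 6 carriers and 14 partner genes were higher and 10 partner genes lower, and over all genes 1192 were higher and 2319 lower (2124 and 4256 at 0.05). Without 1 tumour, higher carriers numbered 6 to 11 and lower carriers 7 to 8, and partner genes 16 to 30 higher and 13 to 25 lower; over all genes, without Dnmt1chip/+ replicate 1, 1407 were higher and 2792 lower. The block ended the calls of Slc25a30 (adjusted p = 0.0563), Slc25a1, Slc25a26, Slc25a28, Slc25a40 and Slc25a43. With array weights 12 carriers were lower. These weights rested mostly on Dnmt1chip/+ replicate 1, at 7.69, against 0.51 to 0.99 for the other tumours. Dnmt1 stayed called, at -0.91 to -0.84 without 1 tumour. The shared number as a random block had a consensus correlation of -0.17 and gave 12 higher and 9 lower carriers. All 3 Dnmt1chip/c tumours share a number, so that fit cannot show the spread between numbers in that genotype. It therefore cannot address tumours that came from the same animal.

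Uncalled carriers near 0 changed sign in 15 cases, and the cause was not tested. With array weights these were Slc25a3 (-0.020), Slc25a2 (-0.019) and Slc25a47 (-0.030). Without Dnmt1chip/+ replicate 2 they were Slc25a41 (-0.034) and Slc25a2 (-0.038), and without Dnmt1chip/+ replicate 3 Ucp1 (0.031). Without Dnmt1chip/c replicate 1 it was Slc25a36 (-0.0044). Without Dnmt1chip/c replicate 2 they were Slc25a41 (-0.060), Slc25a2 (-0.038), Slc25a39 (-0.0075), Slc25a47 (-0.023) and Slc25a53 (-0.037), and without Dnmt1chip/c replicate 3 Slc25a21 (0.012), Slc25a29 (0.0093) and Ucp1 (0.039). The other end of the range without 1 tumour was -0.15 for Slc25a21, 0.085 for Slc25a2, -0.11 for Slc25a29, 0.19 for Slc25a36, 0.047 for Slc25a39, -0.057 for Ucp1, 0.12 for Slc25a47 and 0.078 for Slc25a53. Low signal over background, which centred values do not show, limits what can be seen of weakly expressed carriers.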
